A study of Mus musculus with 34 samples.

Results

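The clustered protocadherins are cadherin-like adhesion proteins of neurons, encoded side by side in the alpha, beta and gamma clusters on mouse chromosome 18. Members were taken as every protein-coding gene of the deposited table whose GENCODE M21 symbol begins with Pcdha, Pcdhb or Pcdhg, which gave 56 of 18548 genes. They comprised 14 alpha, 21 beta and 21 gamma genes, the gamma genes being 12 of type A, 6 of type B and 3 of type C. The annotation lists 57 such genes, and the one not in the table, Pcdhb1, was not analysed here. The study sequenced RNA from prefrontal cortex (PFC), hippocampus (Hip) and striatum (Str) of male C57BL/6J mice at postnatal day 56, either heterozygous for Myt1l (HT) or wild type (WT). Myt1l is a neuronal transcription factor with zinc fingers. All mice were untreated. The 34 libraries comprised 5 HT and 6 WT from PFC, 5 HT and 6 WT from Hip, and 6 HT and 6 WT from Str. The allele is not described in the labels, which also leave unsaid whether libraries of a group came from separate animals; p-values therefore measure the spread between these libraries, which may be technical.

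Each protein carries extracellular cadherin repeats that bind the same isoform on another cell, and a neuron's set of isoforms gives it a recognition code used in dendrite self-avoidance, in arborization and, for the gamma cluster, in neuronal survival. An alpha or gamma gene consists of its own promoter and variable exon spliced to constant exons shared by the whole cluster, whereas a beta gene has a single coding exon and no constant exons. Most promoters are chosen at random in each neuron, with CTCF and cohesin looping a promoter to a distant enhancer. The C-type genes (Pcdhac1, Pcdhac2, Pcdhgc3, Pcdhgc4 and Pcdhgc5) stand at the ends of the alpha and gamma clusters and are mostly expressed without this random choice.

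The clusters lie on the plus strand of GRCm38, the alpha genes between 36930184 and 37187661, the beta genes between 37294812 and 37524479 and the gamma genes between 37661793 and 37841873. The shared exons limit how well reads can be told apart. In the longest protein-coding transcript of each member, the share of 31-base words also found in a transcript of another clustered protocadherin gene was 48.4 to 70.2% for alpha genes (median 62.6%), 41.7 to 67.8% for gamma genes (median 47.0%) and 4.44 to 22.5% for beta genes (median 12.0%). Every alpha and gamma value therefore includes reads assigned by estimate among members, and that assignment's part in any result was not tested. A pair of IDs, ENSMUSG00000007440 and ENSMUSG00000102206, both carried the symbol Pcdha11. ENSMUSG00000007440 starts 117 bases from the start of Pcdha10 in RefSeq and is called by its ID here, and the name Pcdha11 is kept for the other.

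Values are normalized counts, which are estimated read counts scaled between libraries. Library sums lay between 25786041 and 29798959. The gene named in the genotype, Myt1l, averaged 6820 ± 456 in the 5 PFC libraries labelled HT and 6650 ± 842 in the 6 labelled WT, 6896 ± 385 in HT and 6216 ± 594 in WT Hip (n = 5 and 6), and 8162 ± 954 in HT and 7675 ± 552 in WT Str (SD, n = 6 each). It was not lower in libraries labelled HT in any region (log2 differences of 0.04, 0.15 and 0.08 in PFC, Hip and Str; adjusted p of 0.988, 0.719 and 0.915 by limma), so its level does not check the genotype labels. One code in the deposited column names stood on PFC WT replicate 6, Hip HT replicate 1 and Str HT replicate 1, that is on both genotypes; the sample labels were followed, and 0 members were called between genotypes in any region with or without these libraries. Summed markers of cortical projection neurons were 57371 to 61577 in PFC, 37848 to 43864 in Hip and 3859 to 15309 in Str libraries (8 of 8 markers measured), and those of striatal projection neurons were 65128 to 98166 in Str and 4763 to 12365 elsewhere (10 of 10). Choroid plexus markers (7 of 7) summed to 77.7 to 194 in PFC, 2102 to 86463 in Hip and 1333 to 89309 in Str. Str HT replicate 1, with the lowest choroid plexus sum of its group, lay within the range of the other 5 Str HT libraries for 24 of 56 members, against 36 to 47 for each of those 5. The lowest library of Hip HT (replicate 1, sum 2433) did so for 39 members, against 28 to 38 for the others of its group. In Hip WT (replicate 6, sum 2102) the number was 41 against 33 to 45, and in Str WT (replicate 4, sum 22541) 39 against 33 to 46.

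All 56 members passed the filter on low values, a mean normalized count of at least 10 over the libraries compared. Together they summed to 28856 ± 863 in HT and 28735 ± 1374 in WT PFC (n = 5 and 6), 26196 ± 1315 in HT and 26179 ± 501 in WT Hip (n = 5 and 6), and 24267 ± 1274 in HT and 24721 ± 1025 in WT Str (SD, n = 6 each). The gamma cluster gave most of this sum, at 19903 ± 825 in PFC, 17929 ± 392 in Hip and 16900 ± 710 in Str of WT mice. The alpha cluster summed to 5235 ± 346 in PFC, 4343 ± 187 in Hip and 3582 ± 278 in Str, and the beta cluster to 3596 ± 244, 3907 ± 107 and 4239 ± 144 in the same WT groups (n = 6 each). The alpha sum was thus highest in PFC and lowest in Str, and the beta sum had the opposite order. In bulk tissue, fewer cells of a type and less RNA per cell cannot be told apart.

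**Figure D1:**
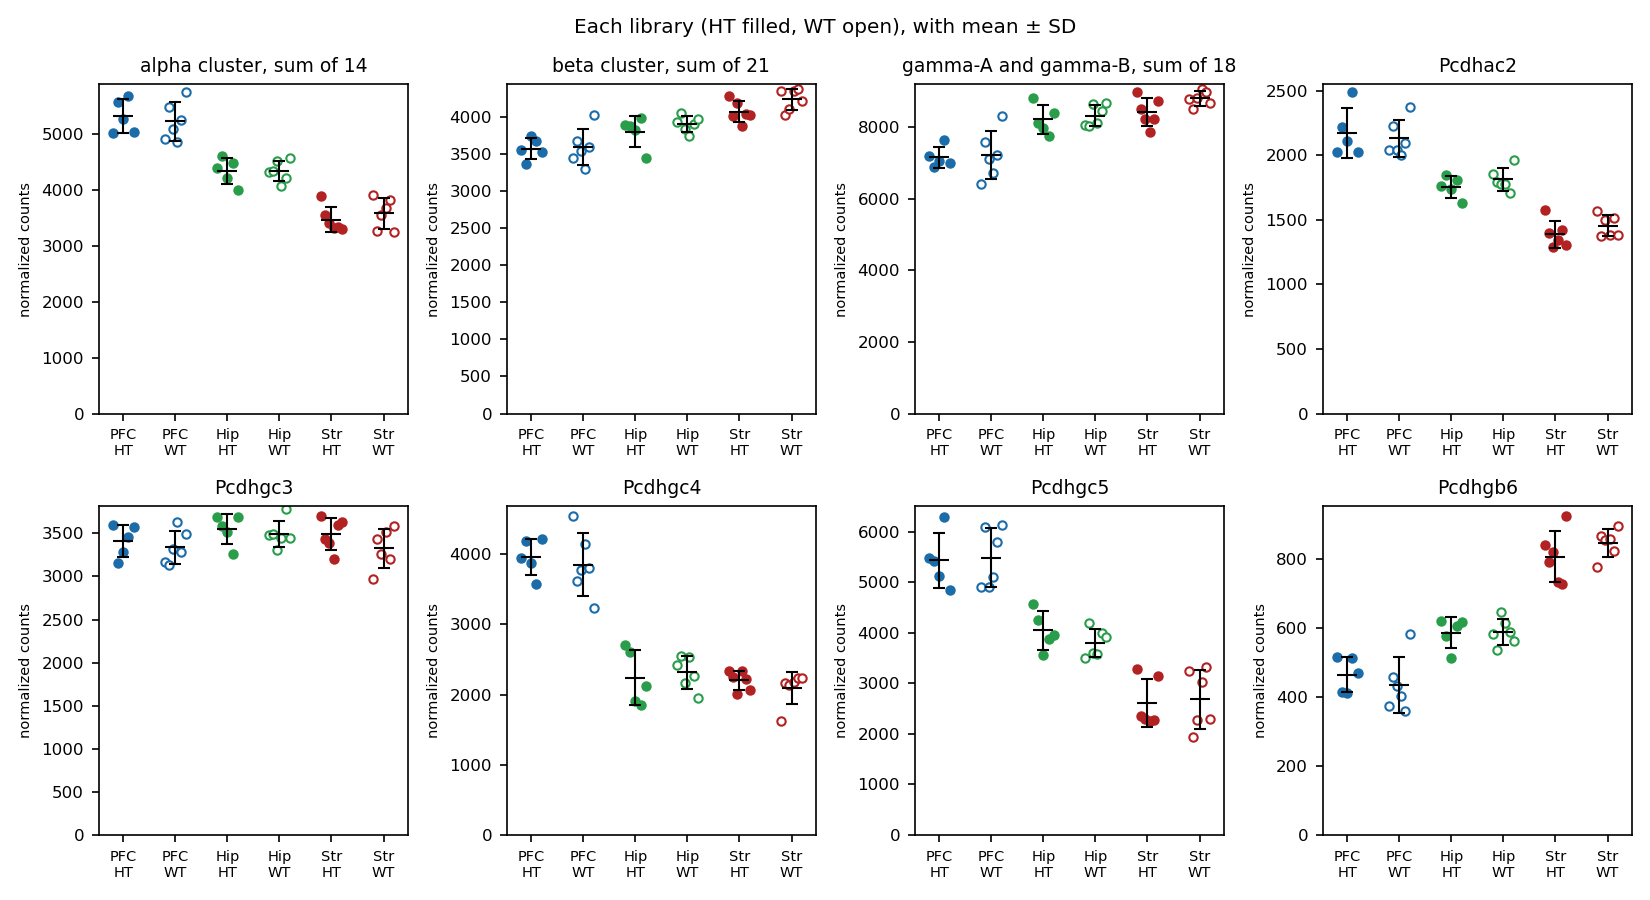
Normalized count of each library (points; HT filled, WT open) with group mean ± SD in PFC, Hip and Str for the summed alpha (14 genes), beta (21) and gamma-A plus gamma-B (18) members and for Pcdhac2, Pcdhgc3, Pcdhgc4, Pcdhgc5 and Pcdhgb6. Each panel has its own vertical scale. Pcdhgc4 and Pcdhgc5 are highest in PFC, Pcdhgb6 is highest in Str, Pcdhgc3 is nearly level, and HT and WT points overlap in every panel.

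Levels between genes are given per kilobase of the longest protein-coding transcript. The 3 gamma C-type genes and Pcdhac2 were the 4 highest of the 56 members in every region of WT mice. Pcdhgc5, a C-type isoform whose expression in mouse cortex begins after birth, had 1158 ± 124 normalized counts per kilobase in PFC, 802 ± 58.7 in Hip and 566 ± 125 in Str. Pcdhgc4, the isoform required for neuronal survival in mice, had 767 ± 89.7 in PFC, 461 ± 45.9 in Hip and 417 ± 46.5 in Str. Pcdhgc3, which promotes dendrite arborization of mouse cortical neurons, had 712 ± 41.2 in PFC, 745 ± 32.9 in Hip and 710 ± 48.2 in Str (SD, n = 6). In PFC, Pcdhgc4 and Pcdhgc3 differed by less than the SD of Pcdhgc4, and in Hip Pcdhgc5 and Pcdhgc3 differed by less than the SD of Pcdhgc5. Pcdhgc3 led the order in Str and stood behind both others in PFC. The C-type genes made up 63.8 ± 2.05% of the gamma sum in PFC, 53.6 ± 1.77% in Hip and 47.9 ± 1.17% in Str of WT mice (n = 6), and 64.2 ± 0.614%, 54.5 ± 1.38% and 49.6 ± 0.996% in the same regions of HT mice (n = 5, 5 and 6).

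Below the C-type genes, levels per kilobase of WT libraries differed with subclass. The gamma-A genes had medians of 98.4 in PFC, 102 in Hip and 107 in Str, with Pcdhga11 highest at 172, 206 and 171. The gamma-B genes had medians of 59.8 in PFC, 80.6 in Hip and 71.2 in Str, with Pcdhgb6 highest at 92.7, 126 and 180. The lowest gamma genes were Pcdhgb5 at 38.7 and Pcdhgb4 at 43.9 in PFC, Pcdhgb4 at 52.0 and Pcdhgb5 at 59.4 in Hip, and Pcdhgb4 at 49.7 and Pcdhga1 at 52.6 in Str; each of these pairs differed by less than 1 SD of its higher member.

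In the alpha cluster, Pcdhac2, the C-type isoform needed for serotonergic axon spacing in mice, stood highest at 362 ± 24.3 per kilobase in PFC, 308 ± 15.1 in Hip and 247 ± 14.2 in Str (SD, n = 6). Pcdha12 followed at 103 in PFC, 72.3 in Hip and 61.4 in Str. Pcdhac1, the other alpha C-type gene, had only 46.0, 33.7 and 25.2 in these regions. Pcdhac1 and Pcdhac2 together made 45.5 ± 0.814% of the alpha sum in PFC, 46.0 ± 1.87% in Hip and 44.5 ± 2.22% in Str of WT mice (n = 6), so the C-type share was nearly level in the alpha cluster while it differed with region in the gamma cluster. Pcdha8 was the lowest of all 56 members in each region, at 3.73 in PFC, 5.22 in Hip and 1.84 in Str, and Pcdha1 was the next lowest alpha gene at 14.3, 14.5 and 9.58.

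In the beta cluster of WT libraries, Pcdhb17 at 88.9 and Pcdhb20 at 87.9 per kilobase led in PFC, Pcdhb9 at 93.4 and Pcdhb17 at 83.3 in Hip, and Pcdhb20 at 91.3 and Pcdhb17 at 88.6 in Str. The lowest were Pcdhb4 at 12.7 and Pcdhb6 at 17.0 in PFC, Pcdhb8 at 18.7 and Pcdhb6 at 19.6 in Hip, and Pcdhb4 at 14.6 in Str, where Pcdhb2 was the next lowest, with 33.7 to 59.6 normalized counts before division by length. Levels per kilobase tended to be higher toward the end of the cluster nearest the gamma genes, with Spearman's rho between gene order and level of 0.57 in PFC, 0.40 in Hip and 0.54 in Str across the 21 beta genes. These genes share libraries and part of their sequence, so the values only describe the cluster. The corresponding rho was 0.38, 0.16 and 0.29 over the 12 alpha genes without the C-type genes, and 0.19, 0.17 and 0.29 over the 18 gamma genes without them.

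**Figure D2:**
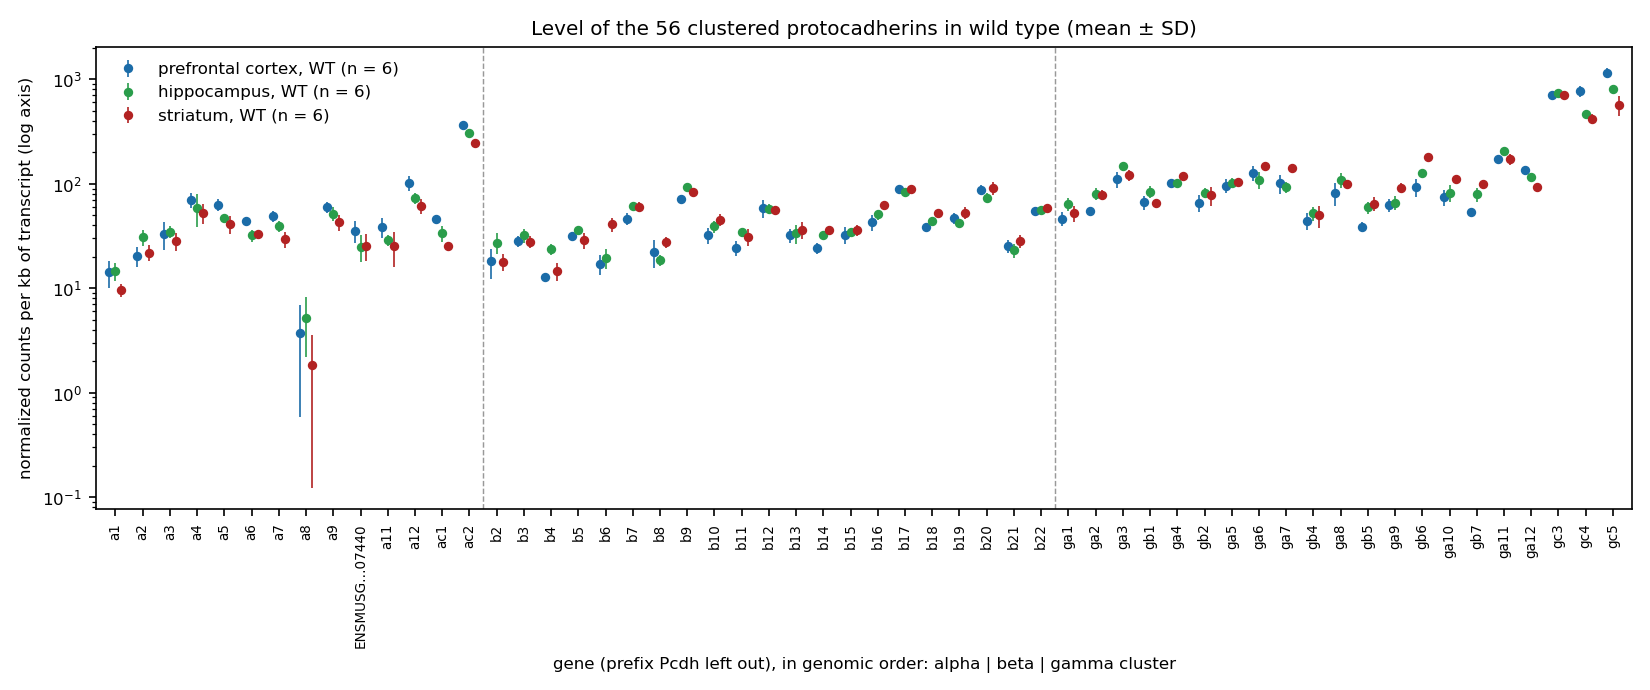
Level per kilobase of transcript in WT libraries (log axis; mean ± SD, n = 6 per region) for the 56 members in their order along the alpha, beta and gamma clusters, coloured by region. Pcdhac2 and the 3 gamma C-type genes stand above all other members, and Pcdha8 stands below them.

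The spread between WT libraries, as the SD of log2 values, had a median over the 56 members of 0.21 in PFC, 0.17 in Hip and 0.18 in Str. Genes between the lowest and highest member level had medians of 0.14, 0.13 and 0.17. The 5 C-type members had medians of 0.12 in PFC, 0.10 in Hip and 0.14 in Str, and the alpha cluster had the highest median of the 3 clusters in each region, at 0.23, 0.21 and 0.27. Pcdha8 had the largest SD in each region, at 1.47 in PFC, 0.79 in Hip and 1.26 in Str.

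Differences between regions were tested within WT mice with limma on log2(normalized count + 1) across all genes, calling a gene at a Benjamini-Hochberg adjusted p under 0.05. Between PFC and Str, 11 of 14 alpha genes were called higher in PFC and 0 lower, while 8 of 21 beta and 3 of 6 gamma-B genes were called lower and 0 higher. In all, 14 members were called higher in PFC and 17 lower, or 55.4% of the 56, and over all genes 56.6% were called (27.7% higher and 29.0% lower), so the members' total lay near that of all genes. Of 12 gamma-A genes, 1 rose and 6 fell, and of the 3 gamma C-type genes 2 rose. Median log2 differences were 0.53 for alpha, −0.17 for beta and −0.21 for gamma genes, beside −0.01 over all genes. With libraries rescaled to equal totals, which moved the median of all genes to −0.15, 11 members rose and 27 fell. Among them 8 alpha genes were higher and 0 lower, and 12 beta genes were lower and 0 higher. At this scaling 61.3% of all genes were called.

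The gamma C-type genes split. Pcdhgc5 ranged from 4902 to 6139 (median 5446) in the 6 PFC libraries and from 1930 to 3325 (median 2660) in the 6 Str libraries, a log2 difference of 1.06 (SE 0.12, adjusted p = 2.13e-07). Pcdhgc4 ranged from 3230 to 4543 (median 3792) in PFC and from 1627 to 2238 (median 2171) in Str, a log2 difference of 0.88 (SE 0.09, adjusted p = 1.75e-08). For both genes every PFC library lay above every Str library. Pcdhgc3 ranged from 3131 to 3628 (median 3299) in PFC and from 2975 to 3585 (median 3348) in Str, a log2 difference of 0.00 with a 95% confidence interval of −0.09 to 0.10 (adjusted p = 0.948). Its groups overlapped throughout. With equal library totals the Pcdhgc3 difference was −0.14 and was called (adjusted p = 0.0158).

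Among alpha genes, Pcdhac1 ranged from 226 to 282 (median 247) in PFC and from 121 to 162 (median 134) in Str (log2 difference 0.86, SE 0.10, adjusted p = 2.17e-07). Pcdhac2 ranged from 2006 to 2377 (median 2072) in PFC and from 1379 to 1572 (median 1443) in Str (0.55, SE 0.05, adjusted p = 2.23e-09). The libraries of PFC and Str did not overlap for either gene. Of the genes chosen at random in neurons, Pcdha7 (0.74, SE 0.12), Pcdha12 (0.74, SE 0.12) and Pcdha11 (0.66, SE 0.19) rose most. The 3 alpha genes not called were Pcdha2 (−0.11), Pcdha3 (0.19) and Pcdha8 (0.88, SE 0.63), whose counts were the lowest. The 1 gamma-A gene that rose was Pcdhga12 (0.53, SE 0.07), the last A-type gene of the cluster.

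The largest fall was in the beta cluster. Pcdhb6 ranged from 44.9 to 79.9 (median 62.5) in PFC and from 122 to 186 (median 152) in Str, a log2 difference of −1.26 (SE 0.17, adjusted p = 9.86e-07). Pcdhgb6 ranged from 360 to 582 (median 416) in PFC and from 776 to 893 (median 855) in Str (−0.98, SE 0.09, adjusted p = 2.30e-09). The regions did not overlap for either gene. Their neighbours along the gamma cluster Pcdhgb7 (−0.87, SE 0.09), Pcdhgb5 (−0.72, SE 0.11) and Pcdhga10 (−0.58, SE 0.12) also fell, as did Pcdhb14 (−0.60, SE 0.08), with no overlap between the libraries of the 2 regions. Pcdhga11, which lies between Pcdhgb7 and Pcdhga12, had a difference of 0.02 (SE 0.07).

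Between PFC and Hip in WT mice, 11 members rose in PFC and 18 fell, or 51.8% of the 56, and 46.3% of all genes were called (22.7% higher and 23.6% lower). Of the alpha genes 7 rose and 1 fell, of the beta genes 1 rose and 7 fell, of the gamma-A genes 1 rose and 5 fell, of the gamma-B genes 0 rose and 5 fell, and of the gamma C-type genes 2 rose. With equal library totals, under which the median of all genes was −0.10, 7 members rose and 21 fell, and alpha genes had 5 higher and 1 lower. At this scaling 50.9% of all genes were called. Pcdhgc4 differed most among the C-type genes, ranging from 3230 to 4543 in PFC and from 1959 to 2551 (median 2347) in Hip, a log2 difference of 0.73 (SE 0.09, adjusted p = 4.20e-07). Pcdhgc5 ranged from 3510 to 4202 (median 3760) in Hip and differed by 0.53 (SE 0.12, adjusted p = 0.000944). PFC libraries lay above all Hip libraries for both. Pcdhgc3 differed by −0.07 (95% confidence interval −0.17 to 0.03); with equal library totals this became −0.16 and was called (adjusted p = 0.00901).

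The alpha genes with the largest rise in PFC over Hip were ENSMUSG00000007440 (0.53, SE 0.21, adjusted p = 0.0447), Pcdha12 (0.50, SE 0.12), Pcdha6 (0.47, SE 0.10) and Pcdhac1 (0.46, SE 0.10), and Pcdhac2 rose by 0.23 (SE 0.05). The call on ENSMUSG00000007440 was lost without any 1 of 8 libraries, which were PFC WT replicates 1, 2, 3, 4 and 6 and Hip WT replicates 1, 2 and 4 (0.42 to 0.55, adjusted p of 0.0557 to 0.115). It was also lost with equal library totals (0.44, adjusted p = 0.0793), with the replicate number as a block (0.53, adjusted p = 0.0603), without the libraries whose column codes begin with 31 (0.38, adjusted p = 0.194) and with only those beginning with 35 (0.53, adjusted p = 0.0766). The members that fell most were Pcdhb4 (−0.88, SE 0.14), Pcdhb2 (−0.62, SE 0.20), Pcdhgb5 (−0.61, SE 0.11), Pcdha2 (−0.60, SE 0.16), Pcdhgb7 (−0.55, SE 0.09) and Pcdhga2 (−0.54, SE 0.09). Pcdhb4 ranged from 43.5 to 54.9 (median 46.3) in PFC and from 72.2 to 105 (median 85.3) in Hip, with no overlap. Pcdha2 is the second alpha gene, and it alone among the alpha genes fell.

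Between Hip and Str in WT mice, 14 members rose in Hip and 13 fell, or 48.2% of the 56, beside 47.5% of all genes (23.6% higher and 23.9% lower). With equal library totals these counts were 13 and 15, beside 48.5% of all genes. The alpha genes had 6 higher and 0 lower, the beta genes 3 and 6, the gamma-A genes 3 and 5, the gamma-B genes 1 and 2, and the gamma C-type genes 1 and 0. Among the C-type genes, Pcdhgc5 rose by 0.53 (SE 0.12, adjusted p = 0.000828), Pcdhac1 by 0.41 (SE 0.10) and Pcdhac2 by 0.32 (SE 0.05), whereas Pcdhgc4 had a difference of 0.15 (95% confidence interval −0.03 to 0.33) and Pcdhgc3 of 0.07 (−0.03 to 0.17). Pcdhb4 (0.70, SE 0.14) and Pcdhb2 (0.59, SE 0.20), which lie near the alpha end of the beta cluster, rose in Hip. Pcdha8 (1.67, SE 0.63, adjusted p = 0.0338), Pcdha1 (0.57, SE 0.20) and Pcdha2 (0.49, SE 0.16) were also called higher. Pcdha8 ranged from 12.3 to 53.3 (median 23.0) in Hip and from 1.92 to 26.8 (median 8.37) in Str, and the regions overlapped. The Pcdha8 call was lost without any 1 of 6 libraries, which were Hip WT replicates 1, 5 and 6 and Str WT replicates 1, 3 and 5 (1.38 to 1.66, adjusted p of 0.0521 to 0.0861), and without codes beginning with 31 (1.16, adjusted p = 0.182). With only codes beginning with 35, calls were lost for Pcdha8 (1.14, adjusted p = 0.171), Pcdha1 (0.49, adjusted p = 0.144) and Pcdha2 (0.41, adjusted p = 0.0833). Calls were also lost for Pcdha1 without Hip WT replicate 3 (0.49, adjusted p = 0.0542) and for Pcdhb2 without Hip WT replicate 5 (0.49, adjusted p = 0.0600) or Str WT replicate 5 (0.48, adjusted p = 0.0572).

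In the same comparison Pcdhb6 fell most, at 48.7 to 94.0 (median 73.7) in Hip and 122 to 186 (median 152) in Str (log2 difference −1.07, SE 0.17, adjusted p = 1.33e-05), with no overlap. Pcdhga7 (−0.61, SE 0.11), Pcdhb8 (−0.54, SE 0.18), Pcdhgb6 (−0.52, SE 0.09), Pcdhga9 (−0.47, SE 0.11) and Pcdhga10 (−0.44, SE 0.12) followed. Along the beta cluster the differences between Hip and the other regions varied with gene order. Spearman's rho between gene order and the log2 difference across the 21 beta genes was 0.59 for PFC minus Hip and −0.54 for Hip minus Str in WT mice. In HT mice, whose libraries are separate, it was 0.70 and −0.51. These 2 differences share the Hip libraries, and the genes share libraries, so the values are a description. For PFC minus Str the rho was −0.01 in WT and 0.06 in HT mice. Over the 12 alpha genes without the C-type genes it was 0.41 in HT and 0.57 in WT mice for PFC minus Hip, 0.20 in HT and 0.62 in WT for PFC minus Str, and −0.34 in HT and −0.32 in WT for Hip minus Str. Over the 18 gamma genes without the C-type genes, the values for these 3 differences lay between −0.35 and 0.16.

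**Figure D3:**
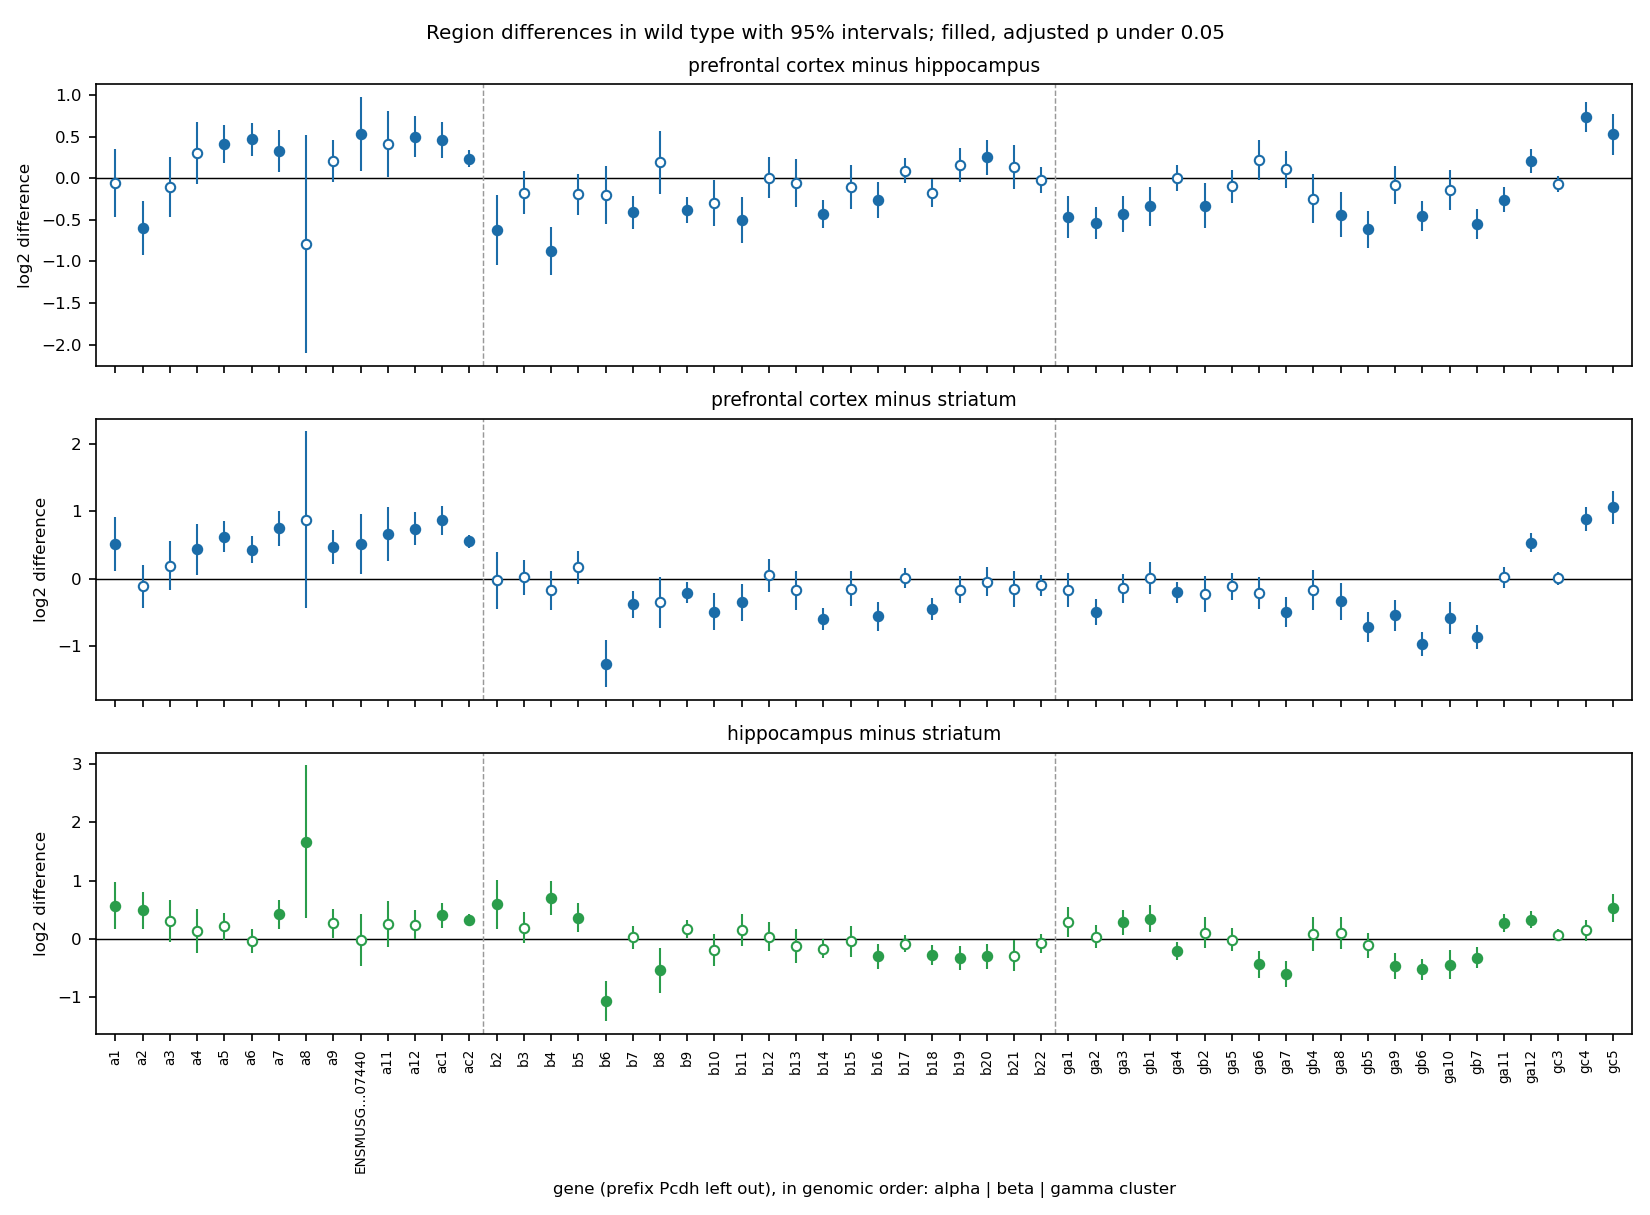
Log2 difference between regions in WT libraries (n = 6 per region) with 95% confidence intervals for the 56 members in their order along the clusters, for PFC minus Hip, PFC minus Str and Hip minus Str. Filled points have an adjusted p under 0.05. Alpha genes lie mostly above 0 in PFC minus Str, with a median of 0.53, while Pcdhb6 and Pcdhgb5 to Pcdhgb7 lie below 0.

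Cell type markers differed between regions beside these members. Oligodendrocyte markers (8 of 8) summed to 88119 to 138890 in PFC, 135520 to 192530 in Hip and 220940 to 291180 in Str, and astrocyte markers (6 of 6) to 129130 to 153500 in PFC, 124150 to 139370 in Hip and 85020 to 108780 in Str. Interneuron markers (6 of 6) summed to 17213 to 19033 in PFC, 15323 to 17965 in Hip and 33329 to 38976 in Str. No marker of these lists was at 0 in every library of a group, and their part in the region differences was not tested.

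The region differences in HT mice (n = 5, 5 and 6) were measured in libraries other than those of WT. Of the members, 7 rose and 14 fell in PFC against Hip (42.6% of all genes called, 20.7% higher and 21.9% lower), 10 rose and 16 fell in PFC against Str (54.9%, with 26.9% higher and 28.1% lower), and 15 rose and 11 fell in Hip against Str (45.3%, with 22.7% higher and 22.6% lower). With equal library totals these counts were 7 and 22, 9 and 26, and 10 and 14. The shares of all genes called were then 47.3%, 59.9% and 45.8%, with medians of all genes of −0.11, −0.16 and −0.06. In PFC against Hip, 19 members were called in the same direction in both genotypes, which was 90.5% of the HT list and 65.5% of the WT list. In PFC against Str there were 21 (80.8% of the HT list and 67.7% of the WT list), and in Hip against Str 19 (73.1% and 70.4%). No member was called in opposite directions, and 49, 51 and 51 of the 56 members had the same sign in both genotypes. Over all genes tested in both, those called in the same direction made up 83.3% of the HT list and 76.8% of the WT list in PFC against Hip, 86.4% and 83.9% in PFC against Str, and 84.4% and 80.7% in Hip against Str, so the members' shares were below those of all genes except in the HT list of PFC against Hip.

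The C-type genes kept their order of differences between PFC and Str in HT mice. Pcdhgc5 differed by 1.07 in HT and 1.06 in WT, Pcdhgc4 by 0.85 and 0.88, Pcdhac1 by 0.82 and 0.86, Pcdhac2 by 0.65 and 0.55, and Pcdhgc3 by −0.03 and 0.00. The Pcdhgc3 difference in HT mice with equal library totals was −0.18 in PFC against Str (adjusted p = 0.00141) and −0.15 in PFC against Hip (adjusted p = 0.0102), both called. Pcdhac1 differed between PFC and Hip by 0.14 in HT (adjusted p = 0.451) and 0.46 in WT. In PFC of HT mice, Pcdhgc5 had 5472, 5430, 5122, 6291 and 4844, against 2261 to 3278 (median 2325) in the 6 Str HT libraries. All 5 PFC libraries lay above the Str libraries. Pcdhb6 differed between PFC and Str by −0.97 in HT and −1.26 in WT, Pcdhgb6 by −0.80 and −0.98, and Pcdhgb7 by −1.18 and −0.87. Pcdha7, called in WT, had a difference of 0.28 in HT (adjusted p = 0.151), and Pcdha8, called higher in Hip than Str in WT, had −0.24 in HT (adjusted p = 0.648). Whether these differences differed between genotypes was tested as the interactions given below.

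**Figure D4:**
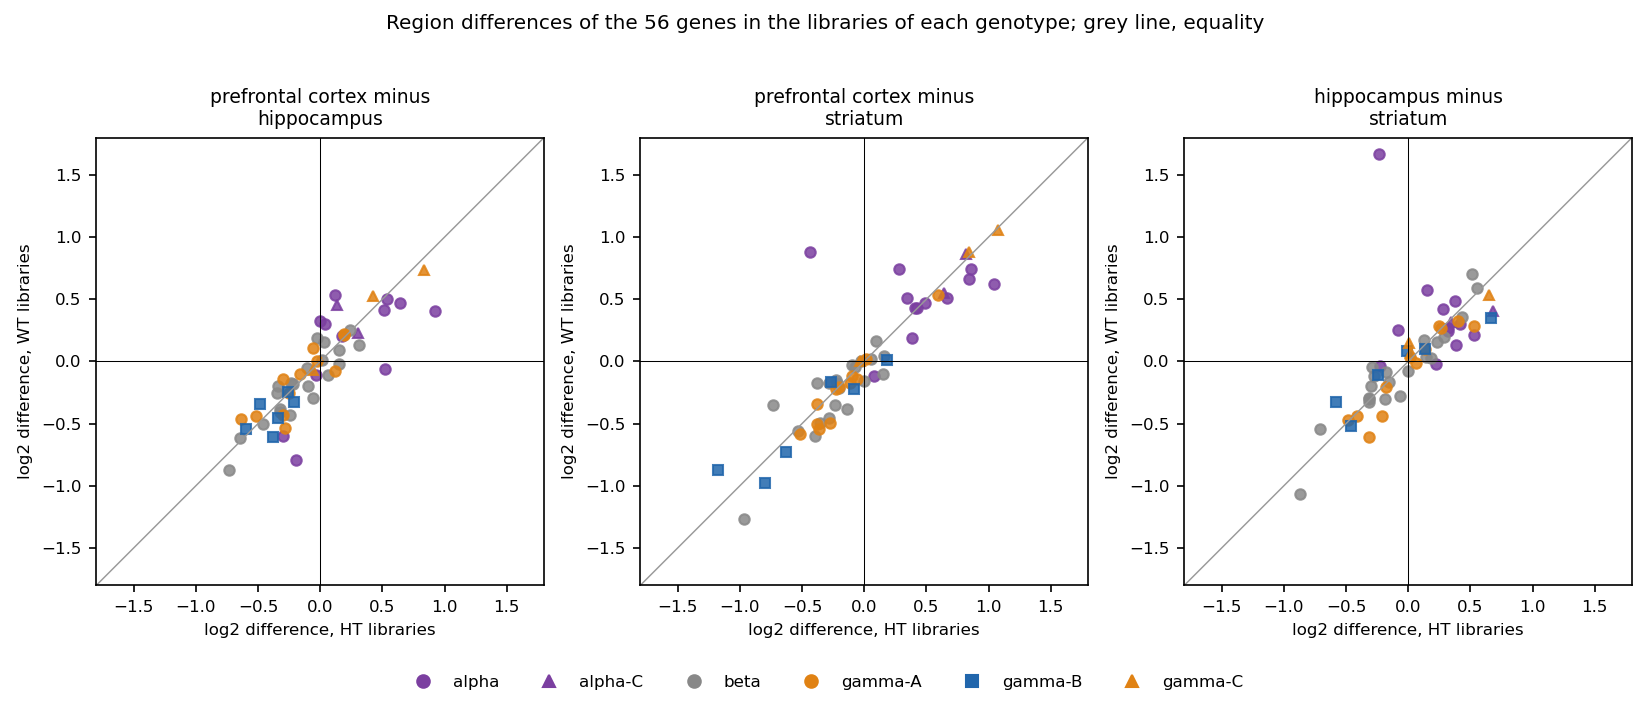
Log2 difference between regions in HT libraries (horizontal axis) and in WT libraries (vertical axis) for the 56 members, coloured by subclass, in PFC minus Hip, PFC minus Str and Hip minus Str. Points scatter around the diagonal, and 49, 51 and 51 of the 56 members have the same sign in both genotypes. Pcdha8 lies far off it in Hip minus Str (−0.24 in HT and 1.67 in WT). Others also lie off it, such as Pcdhac1 in PFC minus Hip (0.14 and 0.46) and Pcdha7 in PFC minus Str (0.28 and 0.74).

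The study's main comparison was between libraries labelled HT and WT within each region. By limma with adjustment over all genes, 0 of 56 members were called in PFC, 0 in Hip and 0 in Str, and 0% of all genes were called in each. At an unadjusted p under 0.05 there was 1 member in PFC (5.00% of all genes), 2 in Hip (6.81%) and 9 in Str (5.89%), the 9 being 2 higher and 7 lower. Median log2 differences over the members were 0.00 in PFC, −0.04 in Hip and −0.07 in Str, beside 0.00 over all genes in each. The 95% confidence interval lay within ±0.5 for 51 members in PFC, 45 in Hip and 48 in Str. Averaged over the 3 regions, 0 members were called (0.170% of all genes), 3 had an unadjusted p under 0.05 (10.5% of all genes), and the interval lay within ±0.5 for 53.

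For the C-type genes, averaged over regions, the log2 difference was −0.02 for Pcdhac1 (95% confidence interval −0.16 to 0.12), −0.03 for Pcdhac2 (−0.09 to 0.03), 0.04 for Pcdhgc3 (−0.01 to 0.10), 0.02 for Pcdhgc4 (−0.09 to 0.13) and 0.01 for Pcdhgc5 (−0.12 to 0.15). In PFC the differences were −0.14 for Pcdhac1, 0.03 for Pcdhac2, 0.03 for Pcdhgc3, 0.05 for Pcdhgc4 and −0.01 for Pcdhgc5. In Hip they were 0.18, −0.05, 0.02, −0.06 and 0.09 for the same genes, and in Str −0.09, −0.07, 0.07, 0.08 and −0.03. HT and WT libraries overlapped for each of these genes in each region.

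In PFC the member with the smallest p was Pcdha7, with 148, 239, 161, 211 and 255 in the libraries labelled HT, against 206 to 302 (median 266) in those labelled WT (log2 difference −0.39, SE 0.14, adjusted p = 0.977). All 5 HT libraries lay below the WT mean, and the groups overlapped. Among members below 0, the next smallest p belonged to Pcdhac1 (−0.14) and Pcdhga8 (−0.17), and Pcdhb2, with a larger p, had −0.24 (SE 0.24). Those with the smallest p above 0 were Pcdha5 (0.17), Pcdhb21 (0.17) and Pcdhga2 (0.13).

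In Hip, Pcdha11 had 90.3, 108, 101, 144 and 101 in the libraries labelled HT, against 132 to 179 (median 150) in those labelled WT (−0.51, SE 0.13, adjusted p = 0.475). Only HT replicate 4 lay within the WT range. ENSMUSG00000007440, the gene next to it in the cluster, had 194, 233, 181, 157 and 145 in HT, against 87.2 to 174 (median 133) in WT (0.47, SE 0.19, adjusted p = 0.719). These neighbours, neither of them called, differed in opposite directions. Of their 31-base words, 62.6% (ENSMUSG00000007440) and 63.1% (Pcdha11) were shared with other members, within the 61.5 to 70.2% of alpha genes other than C-type. Sharing between this pair was not measured, and its part in their differences was not tested. Pcdha2 (−0.26), Pcdhb10 (−0.25), Pcdha9 (0.21) and Pcdhga7 (0.19) were the other members with the smallest p in each direction, and none was called.

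In Str, Pcdha8 ranged from 18.3 to 30.2 (median 25.5) in HT and from 1.92 to 26.8 (median 8.37) in WT (1.67, SE 0.47, adjusted p = 0.715), and 6 of 6 HT libraries lay above the WT mean. Its groups overlapped, and its level in the cluster was the lowest. Pcdhgb1 ranged from 212 to 271 (median 260) in HT and from 273 to 359 (median 306) in WT (−0.30, SE 0.09, adjusted p = 0.715), without overlap. Pcdhga10 (−0.20) and Pcdhb18 (−0.21) below 0, and Pcdhgb7 (0.22) and Pcdhb8 (0.24) above 0, were the others with the smallest p in each direction. Pcdhb8 had an unadjusted p of 0.149 by limma. Pcdhb6 (−0.39), Pcdhb22 (−0.16), Pcdhga9 (−0.22) and Pcdhb7 (−0.21) had smaller unadjusted p, from 0.0255 to 0.0496. Of the 12 gamma-A genes in Str, 11 differences were below 0 and 1 above, with a median of −0.09, and 48.4% of all genes were above 0. None of the 12 was called. Such counts were made for every subclass and region, and this subclass and region are given here with those counts known. The genes share libraries and constant exons, so their signs are not independent and the values only describe the subclass. In the same comparison the 11 non-clustered protocadherins tested were also all below 0 (−0.15 to −0.03), and none was called. In the gamma-A sum, Str libraries labelled HT had 5493 to 6457 (median 5862) and those labelled WT 5863 to 6500 (median 6328). Striatal projection neuron markers (10 of 10) summed to 65128 to 98166 (median 74087) in the same HT libraries and 76515 to 96999 (median 91951) in the WT libraries, with a median log2 difference of −0.15. Meningeal markers (6 of 6) summed to 2221 to 5088 (median 3420) in HT and 3041 to 5447 (median 3841) in WT, with a median of −0.22. The median was −0.17 for cortical projection neuron markers and −0.36 for choroid plexus markers. In the same libraries, median sums were higher in HT for oligodendrocyte (264000 in HT and 257390 in WT), oligodendrocyte precursor (5911 and 5653) and interneuron markers (36693 and 35488). They were also higher for thalamus (5604 and 5368) and serotonergic neuron markers (28.5 and 18.7, with only 1 of 3 measured). They were lower for hippocampal neuron, astrocyte, microglia, and endothelial and mural markers. No marker of these lists was called or at 0 in every library of a group, and their part in the gamma-A differences was not tested. Averaged over regions, the smallest p in each direction belonged to Pcdha9 (0.18, adjusted p = 0.341), ENSMUSG00000007440 (0.25) and Pcdha8 (0.60) above 0, and to Pcdhga9 (−0.16), Pcdhb6 (−0.23) and Pcdhgb1 (−0.13) below 0.

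**Figure D5:**
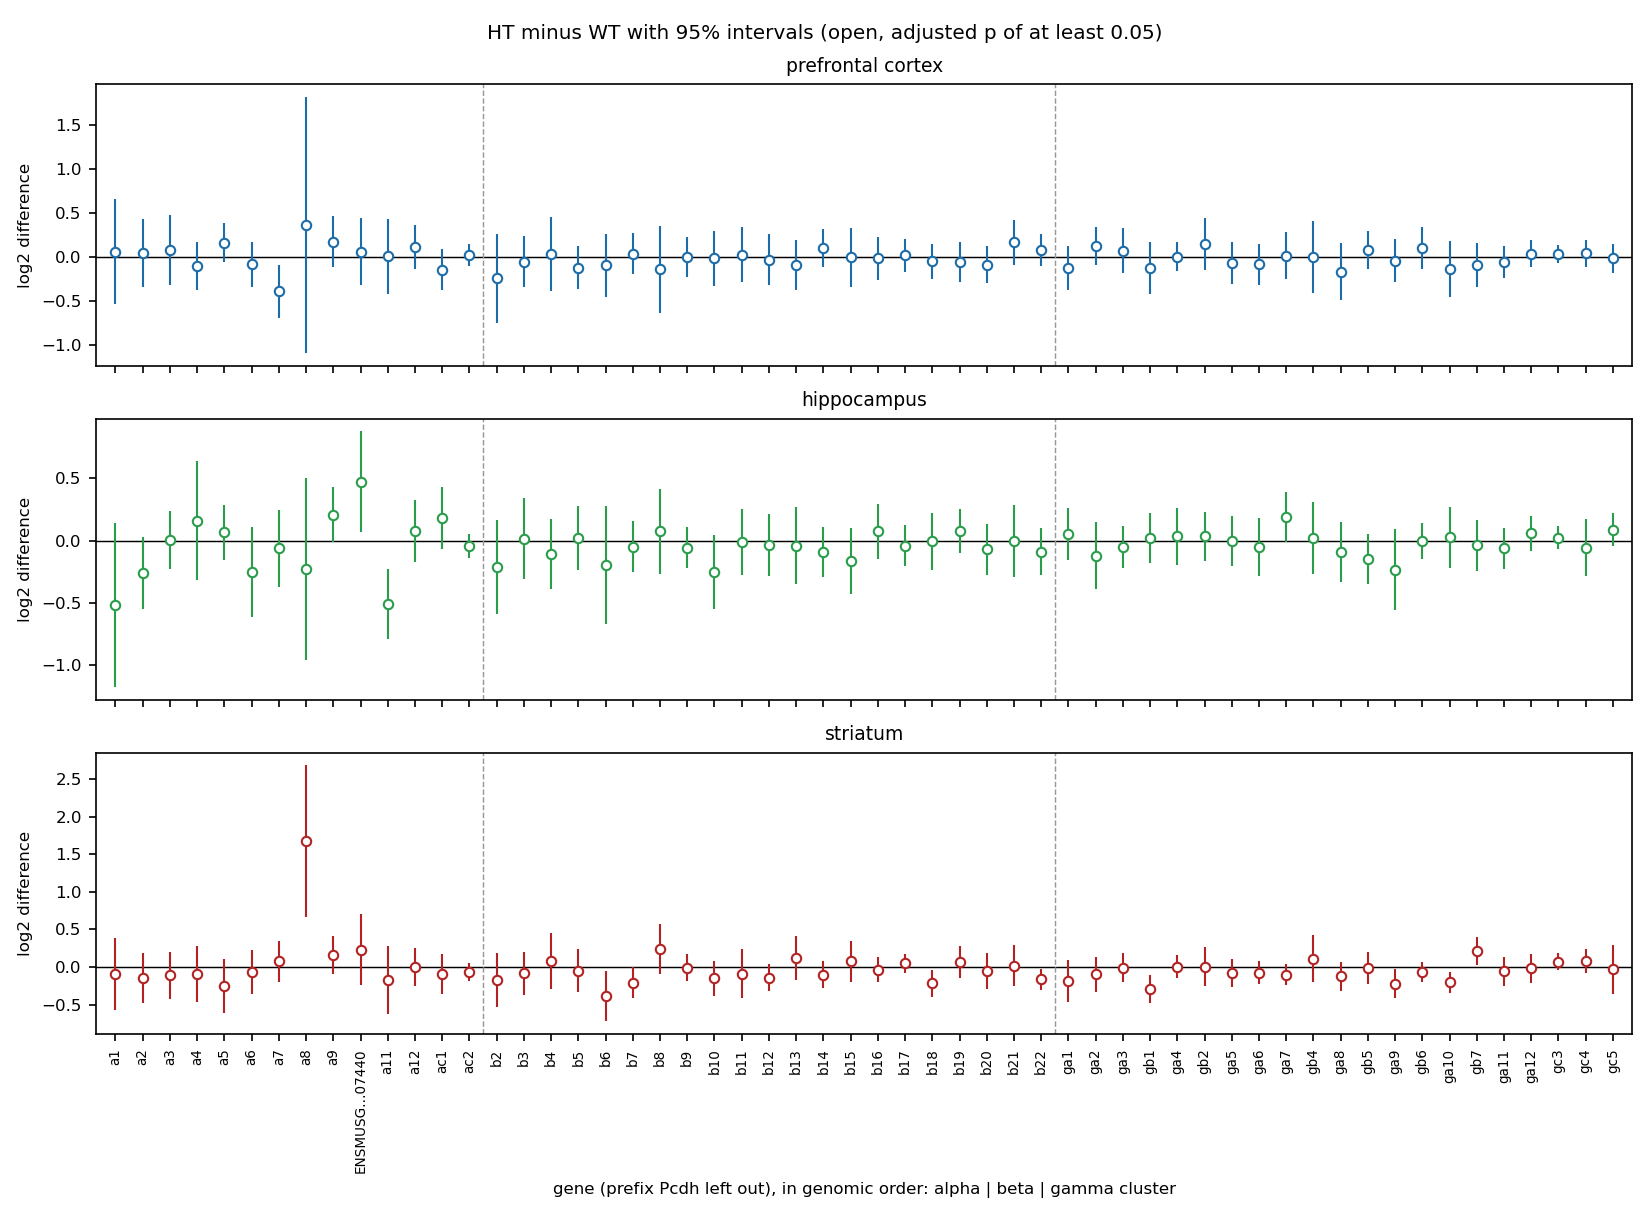
Log2 difference between libraries labelled HT and WT with 95% confidence intervals for the 56 members in their order along the clusters, in PFC (n = 5 and 6), Hip (n = 5 and 6) and Str (n = 6 each). All points are open because no adjusted p was under 0.05; the interval is widest for Pcdha8.

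The interactions, which ask whether the difference between HT and WT differed between regions, called 0 members and 0% of all genes by limma. At an unadjusted p under 0.05 there were 0 members for PFC against Hip (3.76% of all genes), 4 for PFC against Str (3.59%) and 1 for Hip against Str (3.69%). The smallest p belonged to Pcdhac1 (−0.32) and Pcdha11 (0.52) for PFC against Hip, to Pcdhb22 (0.25) and Pcdha7 (−0.46) for PFC against Str, and to Pcdha8 (−1.90) and Pcdhga7 (0.29) for Hip against Str.

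Genes that regulate the locus were read from a list of 19, including Ctcf, the cohesin subunits and their loader and release factors, the repressor Rest, and DNA and histone methyltransferases. In WT mice 2 rose and 11 fell in PFC against Hip, 2 rose and 10 fell in PFC against Str, and 5 rose and 1 fell in Hip against Str. Of all genes, 46.3%, 56.6% and 47.5% were called in these comparisons. With equal library totals the counts were 1 and 16, 0 and 15, and 3 and 2, beside 50.9%, 61.3% and 48.5% of all genes. Rest, a repressor of neuronal genes outside neurons, differed by −0.64 in PFC against Hip and −0.71 in PFC against Str. Stag2, a cohesin subunit, differed by −0.41 and −0.45, and Nipbl, the cohesin loader, by −0.30 and −0.28 in the same comparisons. Dnmt3a, a de novo DNA methyltransferase, differed by 0.35 in PFC against Hip and −0.53 in Hip against Str. Ctcf differed by 0.16 in Hip against Str. Between HT and WT, limma called 0 of the 19 in any region, and 0 in PFC, 2 in Hip and 1 in Str had an unadjusted p under 0.05. Over all genes, 5.00% in PFC, 6.81% in Hip and 5.89% in Str had such a p.

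Intracellular partners and processing enzymes of clustered protocadherins formed a list of 18, with kinases bound by the alpha and gamma tails, the WAVE complex and the secretases. In WT mice 4 rose and 8 fell in PFC against Hip, 8 rose and 2 fell in PFC against Str, and 8 rose and 3 fell in Hip against Str. Rescaled to equal library totals, these counts were 2 and 10, 5 and 8, and 8 and 4, so that falls outnumbered rises in PFC against Str. In that comparison the rescaled median was −0.10 for the list and −0.15 for all genes. The shares of all genes called were 46.3%, 56.6% and 47.5% before rescaling, and 50.9%, 61.3% and 48.5% after it. Ptk2, which encodes focal adhesion kinase, differed by 0.97 in PFC against Str, and Ptk2b, its relative Pyk2, by −0.79 in PFC against Hip. The WAVE complex genes Cyfip2 and Wasf1 differed by 0.71 and 0.61 in PFC against Str. Of the non-clustered protocadherins, 11 of 12 were tested in WT mice, and 5 rose and 5 fell in PFC against Hip, 2 and 6 in PFC against Str, and 4 and 6 in Hip against Str. Pcdh20 differed by −3.03, Pcdh7 by 1.46, Pcdh19 by −1.31 and Pcdh10 by 1.23 in PFC against Hip. Of the neighbouring genes outside the clusters, 16 of 17 were tested, and 5 rose and 1 fell, 5 rose and 3 fell, and 2 rose and 1 fell in the same 3 comparisons. Under equal totals the neighbouring genes had 1 higher and 2 lower, 4 and 3, and 2 and 2, and the non-clustered protocadherins 4 and 6, 2 and 7, and 4 and 6. Of all genes, 50.9%, 61.3% and 48.5% were called under equal totals. Between HT and WT, limma called 0 genes of these lists in any region. At an unadjusted p under 0.05 there were 1, 2 and 1 partner genes in PFC, Hip and Str, 3, 1 and 3 non-clustered protocadherins, and 0, 2 and 0 neighbouring genes. The shares of all genes at this threshold were 5.00%, 6.81% and 5.89% in these regions.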

How the data were processed

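RNA of 34 libraries (TruSeq RNA kit, per the labels' protocols) was quantified by the authors; Salmon 1.1.0, R 3.6.2, DESeq2 1.26.0 and GRCm38 are named in the submitters' processing notes, which give no role or order. The deposited signal values are read counts per gene, estimated and scaled between libraries, hence called normalized counts; they are not whole, since 26.5 to 55.2% of low values lay within 0.05 of a whole multiple, so edgeR was not used. The lowest gene maximum was 10.2, so genes below it are not in the table. Of the gene IDs, 18533 matched GENCODE M21 and 15 did not.

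Normalized counts were tested with limma 3.58.1 (R 4.3.3) on log2(value + 1), which understates differences of low genes, with a mean of at least 10, empirical Bayes with trend and robust options, 2-sided, and Benjamini-Hochberg adjustment over all genes at 0.05. Genotypes were fitted within each region, the average and the interactions over all groups, and regions within each genotype. On simulated data with 200 changed genes in the HT and WT comparison, 60% (PFC), 64% (Hip) and 60% (Str) of genes changed by a log2 of 0.5 were recovered. The changed genes were drawn from all genes, with normal noise. Members varied more between WT libraries than genes of their range (median SD 0.21 against 0.14 in PFC, 0.17 against 0.13 in Hip, 0.18 against 0.17 in Str). Recovery for the members was not measured and may be lower. Members and lists were chosen with earlier results of these data known. Members named were the 3 smallest p in each direction in each genotype comparison, the 2 smallest p in each interaction, up to 6 called members with the largest difference in each direction between WT regions, the 2 highest and 2 lowest per kilobase in each cluster and region, and the C-type genes. Of each other list, the genes named are called genes picked without a rule on size. Some larger called differences are not given, such as Wiz (0.36), Ptk2b (1.24) and Wasf1 (1.15) in Hip against Str of WT mice. Alternatives were another pseudocount, no filter, equal library totals, no robust option, subsets by the code in the column names, blocks by replicate number or code, and leaving out each library.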

Additional observations from a re-analysis of the deposited data

Results flagged for a closer look

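The members named in a comparison between 2 groups, each in the groups compared, and the sums of the 3 clusters in all 6 groups were checked for a highest or lowest library far from the others, by the gap to the nearest library over the group's range. Of these 162 sets of libraries, 9 had such a library, all of them for single members, beside about 1 in 20 by chance.

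The highest library stood apart in 6 groups. ENSMUSG00000007440 had 279 in PFC WT replicate 6, with 190 in the nearest library. Pcdha6 had 237 in Hip HT replicate 5 (nearest 147), and Pcdha9 had 352 in Hip HT replicate 2 (nearest 314). Pcdhac1 had 243 in Hip WT replicate 2 (nearest 181), Pcdhb2 had 58.7 in Str HT replicate 2 (nearest 45.6), and Pcdhb4 had 54.9 in PFC WT replicate 4 (nearest 47.3).

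The lowest library stood apart in the other groups. Pcdhac1 had 91.0 in Str HT replicate 5 (nearest 127), Pcdhb18 had 182 in Str HT replicate 1 (nearest 225), and Pcdhgc4 had 1627 in Str WT replicate 1 (nearest 2136). All values are normalized counts.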

How the results depend on the processing

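Every one of the 13 counts of called members stayed within 1.5 times its value under each alternative, and all counts between HT and WT stayed at 0. The lowest and highest counts over single left-out libraries were 25 and 29 (PFC minus Hip), 26 and 31 (PFC minus Str) and 25 and 29 (Hip minus Str) in WT, and 19 and 23, 22 and 27, and 20 and 27 in HT mice. With equal library totals the median difference of all genes between regions was −0.16 to −0.10, except in Hip minus Str (−0.06). Between Hip and Str of WT mice, each replicate number stood on the same column code in both regions (6 pairs). The deviations of these pairs from their group means had a median correlation of 0.07, against −0.01 for pairs sharing neither number nor code. In the other comparisons the numbers matched the codes for some pairs or none, and the main fits left libraries unpaired. With the replicate block 27, 29 and 28 members were called in WT, 25, 24 and 19 in HT mice and 0 between HT and WT. The column codes recur in the regions of a genotype, and with a random block by code the counts were 29, 31 and 27 in WT and 21, 27 and 27 in HT mice. Signs turned only for differences not called in the main comparison, though some of these were not near 0 there. Hip minus Str in HT was 0.15 for Pcdha1, and PFC minus Hip in HT was 0.12 for ENSMUSG00000007440. The interaction of PFC and Hip was −0.10 for Pcdhgc5. For all turned signs the cause was not tested. PFC HT minus WT became −0.00398 for Pcdhgc4 and 0.0201 for Pcdhgc5 without codes beginning with 31, under the replicate block, with the cohort covariate and without the code found on both genotypes (an alternative chosen after seeing the data); with only codes beginning with 35 they were −0.0420 and 0.0896. With only those codes, Hip HT minus WT was 0.0270 for Pcdhac2 and −0.0209 for Pcdhgc3; the average over regions was 0.00945 for Pcdhac2, −0.0682 for Pcdhgc4 and −0.0187 for Pcdhgc5; the interactions were 0.0694 (Pcdhgc5, PFC and Hip), 0.0444 (Pcdhac1, PFC and Str) and 0.00290 (Pcdhgc3, PFC and Str). Without codes beginning with 31, Str HT minus WT was −0.0104 and the average −0.0438 for Pcdhgc4, and the interaction of PFC and Str was 0.0237 for Pcdhgc3 and 0.00645 for Pcdhgc4. The average for Pcdhgc5 was −0.00408 under the replicate block, and without the code found on both genotypes it was −0.0125 for Pcdhgc5 and −0.0248 for Pcdhgc4. PFC minus Str in WT for Pcdhgc3 was −0.138 (equal totals), −0.0414 (without 31), −0.0195 (only 35) and −0.00961 (without the doubled code). Hip minus Str in HT was −0.0301 for Pcdhgc3 and −0.0431 for Pcdhgc4 (equal totals), and for Pcdhgc4 −0.0452 (without 31 or the doubled code), −0.0681 (only 35) and −0.00776 (replicate block). Over single left-out libraries, the averaged difference lay between −0.0355 and 0.0138 for Pcdhac1, −0.00255 and 0.0433 for Pcdhgc4, and −0.0150 and 0.0373 for Pcdhgc5. PFC HT minus WT lay between −0.0244 and 0.0572 for Pcdhac2, −0.00398 and 0.0944 for Pcdhgc4, and −0.0680 and 0.0263 for Pcdhgc5. Hip HT minus WT lay between −0.131 and 0.00614 for Pcdhgc4, and Str HT minus WT between −0.130 and 0.000906 for Pcdhac1 and −0.120 and 0.0373 for Pcdhgc5. The interactions lay between −0.0211 and 0.0369 (Pcdhgc3, PFC and Hip), −0.141 and 0.0514 (Pcdhac1), −0.0823 and 0.0386 (Pcdhgc4) and −0.0509 and 0.106 (Pcdhgc5, PFC and Str). Hip minus Str in HT lay between −0.0973 and 0.365 for Pcdha1, −0.00157 and 0.0531 for Pcdhgc3, and −0.0624 and 0.0750 for Pcdhgc4, PFC minus Hip in HT between −0.0173 and 0.251 for ENSMUSG00000007440, and PFC minus Str in WT between −0.0275 and 0.0263 for Pcdhgc3. Depth behind each value is unknown because the deposited values are scaled, and the low counts of Pcdha8 gave it the widest intervals.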

Other observations

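Pcdhgb8, listed in the annotation beside the gamma genes but not as protein coding, was in the table and had 30.8 to 86.5 normalized counts over the 34 libraries (median 48.3).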
